A study of Mus musculus with 12 samples.

Results

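Fibroblast growth factor (FGF) genes were followed through an Activin A time course in mouse embryonic stem (ES) cells with and without the ubiquitin ligase Arkadia. They comprised 5 ligand genes, Fgf4, Fgf5, Fgf8, Fgf15 and Fgf17, and 4 receptor genes, Fgfr1, Fgfr2, Fgfr3 and Fgfr4, taken by symbol from a table of expression values for 13508 named genes. Of these 9 genes, 6 had a row of their own: the 5 ligands and Fgfr1. All 6 passed the filter on low values (at least 1 FPKM in at least 2 libraries), as did 12823 genes in all. Expression is given as FPKM, by definition fragments scaled to transcript length and library size. How the scaling was done is not given, so levels compared or summed between genes rest on that definition.

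RNA was sequenced from 4 ES cell lines on a 129SvEv background. Lines 18 and 26 are wild type (WT), 2 in all, and lines 25 and 39 are the 2 labelled Arkadia -/- (null here). Every line spent 24 h in N2B27 medium on fibronectin and then 4 h in 10 µM SB431542 (SB), which blocks the type I receptor kinases for Activin, Nodal and TGFβ. From each line 1 dish was harvested in SB, 1 after 3 h and 1 after 6 h in fresh N2B27 with 10 ng/ml Activin A, which gave 6 groups of 2 libraries. The series asks how Arkadia and the SMAD corepressor SnoN shape dose-dependent SMAD2/3 responses. Before the experiment the lines had been kept in medium with LIF, an inhibitor of GSK3 and the MEK inhibitor PD03, which acts downstream of FGF receptors. No dish received fresh medium without Activin, so every Activin difference below also carries the withdrawal of SB, the medium change and the extra hours. Each genotype was represented by 2 lines, and the 3 dishes of a line share that line.

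FGF ligands are secreted proteins that bind FGF receptor tyrosine kinases together with heparan sulfate, and they signal through adaptor proteins, RAS and the kinases RAF, MEK and ERK. In mouse ES cells, Fgf4 is the best known autocrine ligand and drives the ERK signal under which cells leave naive pluripotency. Fgf5 is a standard marker of the epiblast after implantation. Fgf8 is expressed in the primitive streak and is needed for cells to migrate away from it at gastrulation, Fgf17 belongs to the same subfamily, and Fgf15 is the mouse counterpart of human FGF19.

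RefSeq promoter sequences (GRCm38.p6) were at hand for 2 of the 6 genes tested, Fgf4 and Fgf5 (not for Fgf8, Fgf15, Fgf17 or Fgfr1). They are shown because Fgf5 rose under Activin in all 4 lines whereas Fgf4 stayed near its SB level in WT lines. Each run is the 250 bases before the RefSeq start on the plus strand, chr7:144861136-144861385 for Fgf4 and chr5:98253934-98254183 for Fgf5. Capitals mark matches to GGCGC or its reverse complement GCGCC, a GC-rich SMAD motif.
Fgf4: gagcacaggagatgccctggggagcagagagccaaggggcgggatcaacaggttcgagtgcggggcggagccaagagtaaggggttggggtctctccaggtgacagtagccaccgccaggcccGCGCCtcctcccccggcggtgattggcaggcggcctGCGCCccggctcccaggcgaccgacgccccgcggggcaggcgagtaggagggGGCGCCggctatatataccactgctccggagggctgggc
Fgf5: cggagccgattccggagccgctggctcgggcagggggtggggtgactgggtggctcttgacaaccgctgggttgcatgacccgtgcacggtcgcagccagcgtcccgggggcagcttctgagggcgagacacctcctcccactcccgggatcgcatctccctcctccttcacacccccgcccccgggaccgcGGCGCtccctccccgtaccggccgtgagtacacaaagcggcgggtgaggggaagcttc
The Fgf4 window held 4 matches, of which 2 overlap, and the Fgf5 window held 1. Of 32851 RefSeq windows of this length, 32.0% held at least 1. Neither window held the letters of the SMAD-binding element CAGAC (42.2% of windows) or of the FOXH1 motif AATNCACA (3.18%), each read on both strands. No motif overlapped another kind. The loci in the deposited table begin at 144861270 (Fgf4), inside the window, and at 98253648 (Fgf5), before it, so part of the Fgf4 window and all of the Fgf5 window lie inside the locus that was counted.

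Rnf111, which encodes Arkadia, stood at 3.19 to 4.27 FPKM in the 6 WT libraries and at 0.539 to 0.855 FPKM in the 6 null libraries, so all genotype labels matched. Of 9 ES cell markers 8 were measured, with a sum of 779 to 1127 FPKM, mostly Pou5f1 (562 to 926). Sox2 stood at 18.9 to 44.8 FPKM, Zfp42 at 42.3 to 110, Nanog at 3.45 to 85.1 and Esrrb at 1.55 to 3.47. These ranges span the groups: Nanog was at 3.45 to 5.44 FPKM in SB and 44.7 to 85.1 under Activin. Sox2 was highest in SB (38.9 to 44.8), and Zfp42 was higher in null than in WT lines at each matched time. Of the markers measured only the naive factor Klf4 stayed below 1 FPKM. Endoderm markers (3 of 5 measured) summed to 0.919 to 3.34 FPKM and trophoblast markers (4 of 5) to 4.09 to 7.14. Neural markers (3 of 5) summed to 18.6 to 32.9 FPKM, mostly Tubb3. Summed FPKM ran from 578104 to 805752 per library and median FPKM from 4.09 to 4.29. Read totals are unknown. The steps between low values gave depths of 1.22 to 1.81 relative to the shallowest library, null line 39 at 6 h, in a search of ratios up to 2. By this estimate the null Activin libraries were the shallowest, at up to 1.33, with WT line 26 at 6 h next at 1.34. Low FPKM values are least precise where depth is lowest. In bulk RNA, fewer cells expressing a gene and less RNA per cell cannot be told apart.

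**Figure D1:**
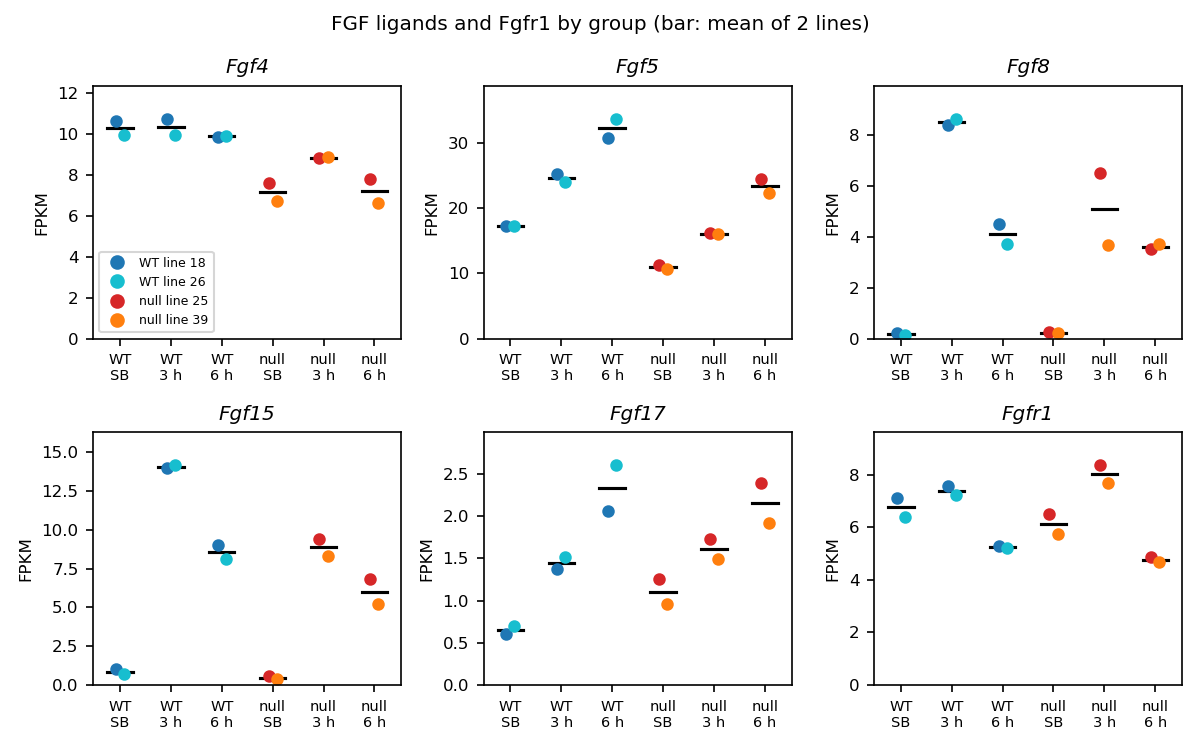
FPKM (vertical axes, linear) of the 5 ligand genes and Fgfr1 by group (horizontal axes). Points are libraries, colours are lines and black bars are means of 2 lines. Fgf8 and Fgf15 were near 0 in SB and highest at 3 h, Fgf5 and Fgf17 were highest at 6 h, and Fgf4 lay between 6.63 and 10.8 FPKM throughout.

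The response to Activin was read within each genotype. In WT lines at 3 h, Fgf8, Fgf15, Fgf5 and Fgf17 rose, so 4 of the 6 genes passed the test (limma adjusted p below 0.05), all 4 upward. Of all genes tested, 22.5% passed in either direction and 12.6% were higher. In null lines at 3 h, Fgf8, Fgf15, Fgf5 and Fgfr1 rose, against a background of 13.6% passing and 6.5% higher. At 6 h Fgf8, Fgf15, Fgf5 and Fgf17 had risen and Fgfr1 had fallen in both genotypes, where 15.9% of genes passed in WT lines (9.59% higher, 6.31% lower) and 13.4% in null lines (7.87% higher, 5.53% lower). The median log2 difference of the 6 genes was 0.53 in WT lines at 3 h, 0.93 in WT lines at 6 h, 0.43 in null lines at 3 h and 0.80 in null lines at 6 h, against medians over all genes of −0.01 to 0.02. Every difference here is taken on log2(FPKM + 1), a scale that compresses changes of low genes. The 3 h and 6 h comparisons of a genotype share its SB libraries. With WT line 18 left out the counts of genes called fell from 4 to 2 in WT lines at 3 h, from 5 to 2 in WT lines at 6 h, from 4 to 2 in null lines at 3 h and from 5 to 3 in null lines at 6 h. Over all 12823 genes the calls then fell from 2882 to 143, from 2039 to 117, from 1749 to 243 and from 1718 to 384. With WT line 26 left out fewer of the 6 passed in each of these comparisons, as did fewer of all genes. Without null line 25 or 39 the null calls of Fgf17 and Fgfr1 at 6 h were lost. Their differences were then 0.57 to 0.59 and −0.35 to −0.25, and calls over all genes stayed near those of the full fit.

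Fgf8 (NM_010205, chr19:45736490-45742932, mm10) was almost silent in SB. It stood at 0.225 and 0.156 FPKM in WT lines 18 and 26 and at 0.248 and 0.220 in null lines 25 and 39. After 3 h of Activin it reached 8.42 and 8.65 FPKM in the WT lines and 6.53 and 3.67 in the null lines. At 6 h it was 4.51 and 3.71 FPKM in WT lines and 3.52 and 3.73 in null lines. Every Activin library was above every SB library. Null line 39 had about the same level at both times, and the other lines were lower at 6 h than at 3 h. The ratio of group means to SB was 44.7 at 3 h and 21.5 at 6 h in WT lines, and 21.8 and 15.5 in null lines. The log2 differences were 3.00 and 2.10 in WT lines (SE 0.190, limma adjusted p = 2.4e-05 and 0.00024) and 2.26 and 1.90 in null lines (adjusted p = 0.00023 and 0.0005). With only 1 WT line in the fit, the WT rise at 6 h missed the threshold (limma adjusted p = 0.066 without line 18 and 0.059 without line 26, from 3.8e-05 to 0.066 over all alternatives).

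From 3 h to 6 h, Fgf8 fell in WT lines, by 0.90 on the log2 scale (SE 0.190, limma adjusted p = 0.047). This call was near the threshold: with WT line 18 left out the limma adjusted p became 0.59, and with line 26 left out 0.84 (0.029 to 0.84 over all alternatives). In null lines the difference was −0.36 (limma adjusted p = 0.31), made of −0.74 in line 25 and 0.02 in line 39.

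Fgf15 (NM_008003, chr7:144896532-144900953) followed the same course at higher levels. In SB it stood at 1.06 and 0.677 FPKM in WT lines 18 and 26 and at 0.560 and 0.358 in null lines 25 and 39. At 3 h it was 14.0 and 14.1 FPKM in the WT lines and 9.43 and 8.31 in the null lines, the highest level of the gene in all 4 lines. At 6 h it was 8.99 and 8.12 FPKM in WT lines and 6.84 and 5.19 in null lines. The SB and Activin libraries did not overlap in either genotype. The ratio of group means to SB was 16.1 at 3 h and 9.83 at 6 h in WT lines, and 19.3 and 13.1 in null lines. The log2 differences were 3.02 and 2.36 in WT lines (SE 0.143, limma adjusted p = 3.9e-06 and 2.2e-05) and 2.76 and 2.26 in null lines (adjusted p = 1e-05 and 3.9e-05). Fgf15 was lower at 6 h than at 3 h in 4 of 4 lines, by −0.66 in WT lines (SE 0.143, limma adjusted p = 0.053) and −0.50 in null lines (adjusted p = 0.087). With the cell line as a block these differences passed (limma adjusted p = 0.017 and 0.021). The ranges of the adjusted p over the alternatives were 0.017 to 0.79 and 0.021 to 0.28.

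The summed level of mesendoderm markers moved with Fgf8 and Fgf15. Of 6 listed, T, Eomes and Gsc were measured, and none was at 0. Their summed level was 1.75 to 1.80 FPKM in WT and 1.55 to 1.62 in null libraries in SB. At 3 h it was 14.4 to 15.1 FPKM in WT and 10.32 to 10.34 in null libraries, and at 6 h 9.48 to 10.4 and 7.46 to 8.24. The sum thus peaked at 3 h and was lower in null libraries at both times, as Fgf15 was. Eomes and Gsc, each highest at 3 h in 4 of 4 lines, carried that peak. T went the other way, from 2.11 and 1.95 FPKM at 3 h to 3.94 and 3.66 at 6 h in WT lines and from 1.46 and 1.90 to 2.64 and 4.14 in null lines, where line 39 at 6 h was above both WT lines. The part of these cells in the FGF values was not tested.

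Fgf5 (NM_001277268, chr5:98253648-98277239), whose promoter is printed above, had the highest FPKM of the 5 ligands in every library. In SB it stood at 17.3 and 17.2 FPKM in WT lines 18 and 26 and at 11.3 and 10.7 in null lines 25 and 39. At 3 h it was 25.2 and 24.0 FPKM in WT lines and 16.1 and 15.9 in null lines. At 6 h it was 30.7 and 33.6 FPKM in WT lines and 24.5 and 22.3 in null lines. In each genotype the 3 groups rose stepwise without overlap. The order of the 6 groups was null SB, null 3 h, WT SB, null 6 h, WT 3 h and WT 6 h. Null 6 h and WT 3 h overlapped, and the others did not. The log2 differences from SB were 0.49 at 3 h and 0.86 at 6 h in WT lines (SE 0.0687, limma adjusted p = 0.0026 and 0.00013) and 0.51 and 1.03 in null lines (adjusted p = 0.0033 and 5.4e-05). The further rise from 3 h to 6 h was 0.37 in WT lines and 0.52 in null lines (limma adjusted p = 0.029 and 0.0083). Each of these calls but the one for null lines at 6 h was lost without one or other line. For the WT rise at 3 h the limma adjusted p was 0.21 without line 18 and 0.15 without line 26, and for the WT rise at 6 h it was 0.061 without line 26. For the null rise at 3 h it was 0.053 and 0.054 without WT lines 18 and 26, where the estimate is unchanged and only the pooled spread and the adjustment differ. For the step from 3 h to 6 h it reached 0.86 in WT lines, without line 26, and 0.12 in null lines, without either WT line, where it was also 0.091 without null line 25 and 0.076 without null line 39. The estimates themselves stayed between 0.28 and 1.08 over all alternatives.

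Fgf17 (NM_008004, chr14:70636153-70642299) was the lowest of the ligands once Activin was present. In SB it stood at 0.605 and 0.694 FPKM in WT lines 18 and 26 and at 1.25 and 0.957 in null lines 25 and 39. By 3 h it had reached 1.37 and 1.51 FPKM in WT lines while null lines had 1.73 and 1.49. The 6 h values were 2.06 and 2.60 FPKM in WT lines and 2.39 and 1.91 in null lines. The level was higher at each later time in 4 of 4 lines. The log2 differences from SB were 0.57 at 3 h and 1.01 at 6 h in WT lines (SE 0.129, limma adjusted p = 0.019 and 0.0016), and 0.31 and 0.58 in null lines (adjusted p = 0.14 and 0.023). With the line as a block the null difference at 3 h passed (limma adjusted p = 0.040), as did the 6 h against 3 h difference in WT lines (0.44, adjusted p = 0.12 without and 0.038 with the block). Over all alternatives these 2 adjusted p-values ran from 0.040 to 0.30 and from 0.038 to 0.99. All 3 Fgf17 calls were lost when a WT line was left out: without lines 18 and 26 the limma adjusted p was 0.34 and 0.28 for WT at 3 h, 0.11 and 0.15 for WT at 6 h, and 0.11 for null at 6 h. The null call at 6 h was also lost without null line 25 or 39 (limma adjusted p = 0.088 and 0.072).

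Fgf4 (NM_010202, chr7:144861270-144865334) did not pass the test for Activin in either genotype. In SB it stood at 10.7 and 9.95 FPKM in WT lines 18 and 26 and at 7.60 and 6.75 in null lines 25 and 39. The 3 h values were 10.8 and 9.97 FPKM in WT lines while null lines had 8.85 and 8.88. The 6 h values were 9.89 and 9.89 in WT lines and 7.82 and 6.63 in null lines. The WT groups in SB and at 3 h overlapped, and both 6 h values lay just below them. In null lines the 3 h group lay above both others. The log2 differences from SB in WT lines were 0.01 at 3 h (95% interval −0.19 to 0.21) and −0.05 at 6 h (−0.25 to 0.15). In null lines they were 0.27 at 3 h (limma adjusted p = 0.072) and 0.01 at 6 h (−0.19 to 0.21). With the line as a block the null difference at 3 h passed (limma adjusted p = 0.025, from 0.025 to 0.24 over the alternatives), as did the −0.27 from 3 h to 6 h (adjusted p = 0.12 without and 0.047 with the block, from 0.047 to 0.37).

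**Figure D2:**
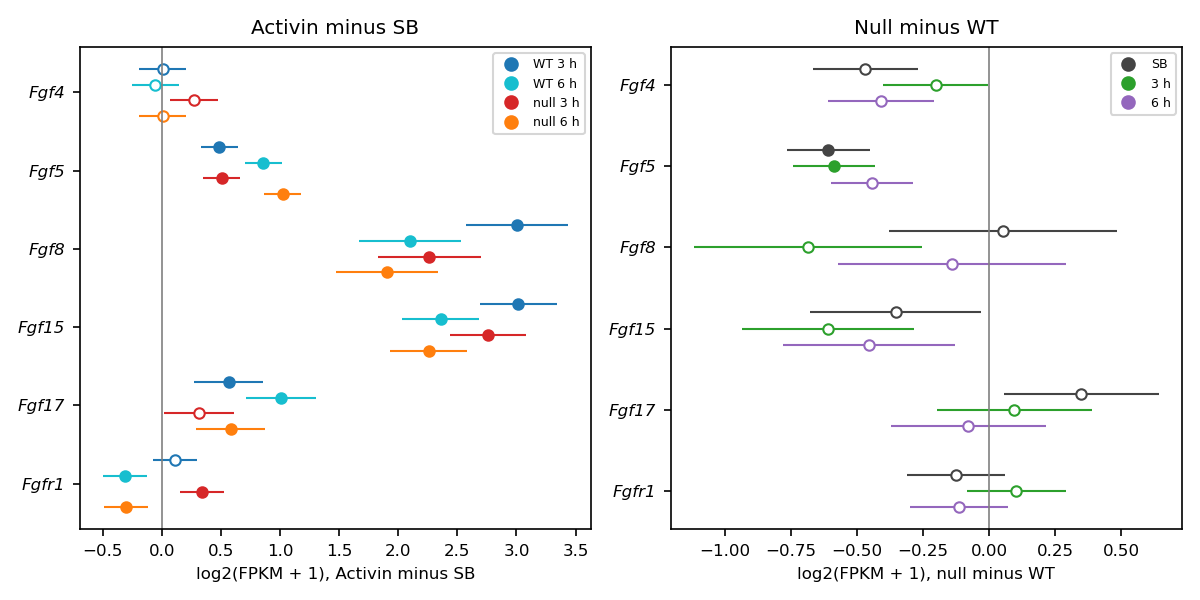
Differences in log2(FPKM + 1) (horizontal axes) for the 6 genes (vertical axes), Activin minus SB on the left and null minus WT on the right, with 95% intervals from limma; filled points passed an adjusted p of 0.05 and open points did not. Fgf8 and Fgf15 differences from SB ran from 1.90 to 3.02, and the filled points on the right are those of Fgf5 in SB and at 3 h.

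Among the receptors, only Fgfr1 (NM_001079909, chr8:25518738-25575641) could be read alone. In SB it stood at 7.11 and 6.39 FPKM in WT lines 18 and 26 and at 6.49 and 5.72 in null lines 25 and 39. With 3 h of Activin it was 7.56 and 7.21 FPKM in WT lines while null lines had 8.35 and 7.68. The 6 h values were 5.29 and 5.20 in WT lines and 4.87 and 4.66 in null lines. The 6 h libraries were the 4 lowest of the 12. Each line was higher at 3 h than in SB and lower at 6 h than in SB. The log2 differences from SB were 0.11 at 3 h (limma adjusted p = 0.33) and −0.31 at 6 h (adjusted p = 0.037) in WT lines, with an SE of 0.0818. In null lines they were 0.34 and −0.30 (limma adjusted p = 0.028 and 0.046). From 3 h to 6 h Fgfr1 fell by 0.42 in WT lines and by 0.64 in null lines (limma adjusted p = 0.036 and 0.0072). None of these 5 calls held in every alternative. With either WT line left out all 5 were lost, with limma adjusted p of 0.55 and 0.31 for WT at 6 h, 0.14 for null at 3 h, 0.17 for null at 6 h, 0.65 and 0.67 for WT from 3 h to 6 h and 0.11 for null from 3 h to 6 h. Without null line 25 the null adjusted p from limma was 0.10 at 3 h, 0.18 at 6 h and 0.085 from 3 h to 6 h, and without null line 39 it was 0.087, 0.077 and 0.078. A second Fgfr1 locus in the table, at 0 to 1.00 FPKM, was not used; with both loci summed, the differences from SB at 6 h were −0.28 in WT lines and −0.27 in null lines (limma adjusted p = 0.058 and 0.071). Loci of Fgfr1, Fgf15 and Fgf17 overlap unnamed RefSeq gene models (Gm31288, Gm26793 and Gm38605 among them), and the use of strand in counting is not given, so reads of these pairs cannot be told apart.

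Fgfr2 appeared only in a joined row with Ctbp2, a transcriptional corepressor gene, at 63.6 to 93.1 FPKM. The row carries the RefSeq identifier of Ctbp2 (NM_009980), but its locus, chr7:130162475-130266294, is that of Fgfr2. It fell at 3 h and 6 h in both genotypes, by 0.39 and 0.41 in WT lines and by 0.42 and 0.40 in null lines (SE 0.0487, limma adjusted p = 0.0011 to 0.0016). The shares of the 2 genes in it cannot be told apart, so it is not counted with the 6. No row was found for Fgfr3 or Fgfr4, and no locus of the table overlapped their RefSeq positions.

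Set against each other between the Activin times, 3 of the 6 genes passed in WT lines (Fgf5 up, Fgf8 and Fgfr1 down) where 2.53% of all genes did (1.22% higher, 1.31% lower). In null lines 2 passed (Fgf5 up, Fgfr1 down) where 4.63% of all genes did (2.78% higher, 1.86% lower). With the line as a block these counts were 5 and 4, while the genes called among all 12823 rose from 325 to 852 and from 594 to 1724. With either WT line left out they were 0 and 0, and without null line 25 or 39 the null count was 0; limma then called none of all genes either (771 to 2839 at an unadjusted p below 0.05). The medians of the 6 genes were −0.24 and −0.31, against 0.01 and 0.02 over all genes. Of the 5 ligands, Fgf5 and Fgf17 were higher at 6 h than at 3 h in 4 of 4 lines, Fgf15 and Fgf4 were lower in 4 of 4, and Fgf8 was lower in 3 of 4. For Fgf4 the change in WT line 26 was only −0.01 (9.97 to 9.89 FPKM). The share of all genes with the same direction in 4 of 4 lines was not counted.

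The summed level of the 5 ligands was 29.8 and 28.7 FPKM in WT lines 18 and 26 in SB, 59.7 and 58.2 at 3 h and 56.2 and 57.9 at 6 h. In null lines 25 and 39 it was 20.9 and 19.0 FPKM in SB, 42.6 and 38.3 at 3 h and 45.0 and 39.8 at 6 h. Null libraries were below WT libraries at each matched time. Fgf5 made up 57.9% and 60.0% of the sum in WT lines in SB and Fgf4 35.7% and 34.6%. At 3 h the WT shares were 42.2% and 41.1% for Fgf5, 23.4% and 24.3% for Fgf15, 18.0% and 17.1% for Fgf4 and 14.1% and 14.9% for Fgf8. At 6 h Fgf5 was back at 54.7% and 58.0%. In null lines Fgf5 made up 53.9% and 56.3% in SB, and at 3 h Fgf15 was at 22.1% and 21.7% and Fgf8 at 15.3% and 9.58%. Line 39 had the lowest Fgf8 share of the 4 lines at 3 h. These sums are descriptions, with no test.

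**Figure D3:**
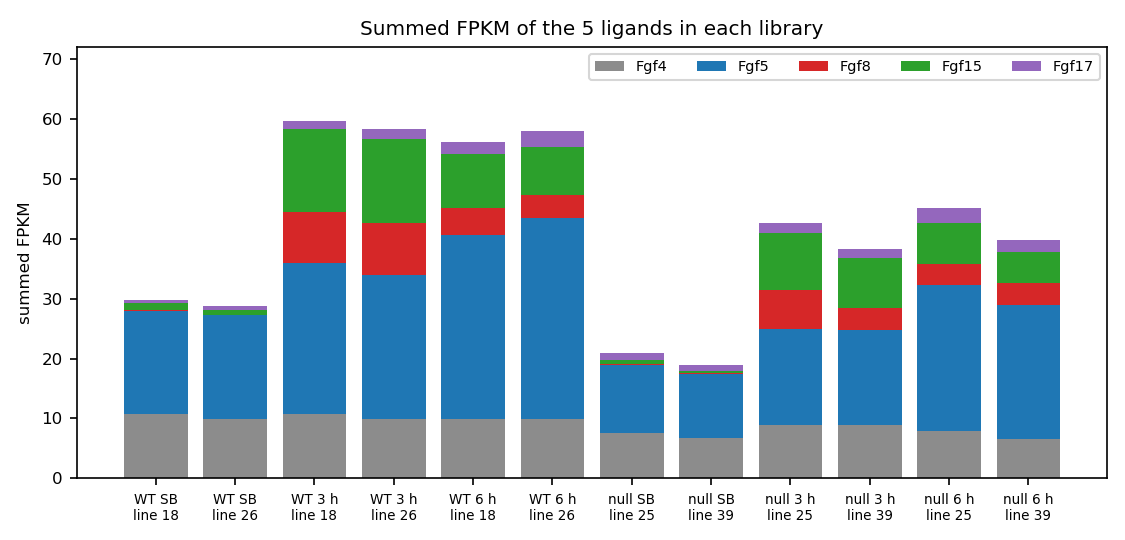
Summed FPKM of the 5 ligand genes (vertical axis, from 0) in each of the 12 libraries (horizontal axis), stacked by ligand. The sum was 29.8 and 28.7 FPKM in WT libraries in SB and 59.7 and 58.2 at 3 h, and Fgf5 was the largest block in every library.

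Genotype was compared within each treatment. Fgf5 was lower in null lines throughout, by 0.61 in SB and 0.59 at 3 h. It was the 1 gene of the 6 to pass in SB, where 0.312% of all genes did and 0.0624% were lower, and again at 3 h, where 0.382% did and 0.25% were lower. At 6 h none of the 6 passed limma's test (background 0.211%), although 3 had an unadjusted p below 0.05, as 1881 of all genes did. Within a treatment these p-values use the line-to-line spread averaged over 6 groups, and they treat the 3 libraries from 1 line as if they were independent. On the means of the lines, the contrast with the cell line as its unit, none of the 6 and none of all genes passed limma's test (background 0%). Even Rnf111 missed it, at −1.47 (limma adjusted p = 0.060), so a miss in this contrast does not show that a gene is equal between genotypes. There 3 of the 6, and 1710 of all genes, had an unadjusted p below 0.05.

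The null to WT ratio of Fgf5 was 0.636 (SB), 0.652 (3 h) and 0.727 (6 h). The log2 differences were −0.61, −0.59 and −0.44 (SE 0.0687, limma adjusted p = 0.0097, 0.011 and 0.056), and −0.55 on the means of the lines (95% interval −0.70 to −0.39, adjusted p = 0.11). Null and WT libraries did not overlap at any matched time. The direction was the same in every alternative, between −0.65 and −0.38 within treatments. The calls in SB and at 3 h were lost without WT line 18 (limma adjusted p = 0.43 and 0.59), without WT line 26 (0.42 and 0.31) and without null line 39 (0.095 and 0.072). They were also lost with only the 4 libraries of the contrast in the fit (0.32 and 0.16). Without null line 25 the difference at 6 h was −0.51 and passed (limma adjusted p = 0.015), as did that on the means of the lines (−0.58, adjusted p = 0.040). Without that line the genes called among all 12823 rose from 40 to 2047 in SB, from 49 to 136 at 3 h, from 27 to 1508 at 6 h and from 0 to 1193 on the means. The ranges of the adjusted p over all alternatives were 0.006 to 0.43 in SB, 0.011 to 0.59 at 3 h, 0.015 to 0.77 at 6 h and 0.040 to 0.15 on the means.

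The summed level of epiblast markers was lower in null than in WT libraries at each matched time, as Fgf5 was. All 5 of the list (Otx2, Pou3f1, Dnmt3b, Lef1 and Zic2) were measured above 1 FPKM in every library. Their sum was 244 to 252 FPKM in WT against 195 to 200.1 in null libraries in SB, 215 to 234 against 209 to 211 at 3 h and 200.0 to 210.2 against 169.7 to 170.2 at 6 h. In SB and at 6 h all 5 genes were lower in both null libraries than in both WT libraries. At 3 h this held for Otx2 and Dnmt3b, while Pou3f1 (30.2 and 29.8 FPKM in WT, 29.9 and 30.9 in null lines), Zic2 (10.8 and 11.6, 12.9 and 11.2) and Lef1 (11.7 and 11.2, 12.2 and 8.01) overlapped. In WT lines the sum was lower at each later time, and in null lines it was highest at 3 h. Fibroblast markers, of which 4 of 5 were measured, summed to 4.86 to 7.38 FPKM in WT and 6.59 to 11.02 in null libraries. The genotypes overlapped in SB (5.08 to 7.38 in WT, 6.61 to 11.02 in null libraries). Col1a2 was high only in null line 25 (1.88 to 3.17 FPKM, at most 0.999 elsewhere). Dcn went the other way at each matched time, in SB with 2.07 and 1.97 FPKM in WT and 1.31 and 1.47 in null lines. The part of either in the Fgf5 difference was not tested.

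Fgf4 and Fgf15 were also lower in every null library than in every WT library of the same treatment, but neither passed. The share of all genes that separate in this way was not counted. The separation of Fgf4, Fgf15 and Fgf5 is therefore not read as particular to these genes. For Fgf4 the log2 difference was −0.47 in SB (limma adjusted p = 0.082), −0.20 at 3 h (0.38) and −0.41 at 6 h (0.13), with an SE of 0.0875. All 6 null libraries, at 6.63 to 8.88 FPKM, lay below all 6 WT libraries, at 9.89 to 10.8. Without null line 25, Fgf4 passed in SB (−0.54, limma adjusted p = 0.012), at 6 h (−0.51, 0.018) and on the means of the lines (−0.42, 0.044), where 2047, 1508 and 1193 of all genes passed, with ranges over the alternatives of 0.012 to 0.90, 0.018 to 0.87 and 0.044 to 0.53. For Fgf15 they were −0.35, −0.61 and −0.45 (SE 0.143, limma adjusted p = 0.32, 0.15 and 0.25) and −0.47 on the means of the lines (adjusted p = 0.25). Without null line 25 the Fgf15 difference was −0.62 at 6 h and −0.59 on the means, and both passed, among the same 1508 and 1193 genes (limma adjusted p = 0.0498 and 0.046, from 0.0498 to 0.87 and from 0.046 to 0.38 over the alternatives).

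Fgf8, Fgf17 and Fgfr1 gave no call between genotypes. The Fgf8 difference at 3 h was −0.69 (95% interval −1.12 to −0.25, limma adjusted p = 0.21). It was −1.03 without null line 25 and passed there, among 136 of all genes (limma adjusted p = 0.041), and −0.34 without null line 39, with adjusted p from 0.041 to 0.97 over the alternatives. In SB and at 6 h it was 0.05 (−0.38 to 0.48) and −0.14 (−0.57 to 0.29). Fgf17 was higher in both null libraries in SB, by 0.35 (0.05 to 0.64, limma adjusted p = 0.30), and its groups overlapped at 3 h and 6 h. For Fgfr1 the differences were −0.13 (−0.31 to 0.06) in SB, 0.10 (−0.08 to 0.29) at 3 h and −0.12 (−0.30 to 0.07) at 6 h.

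The difference between genotypes in the response itself was tested as an interaction. None of the 6 genes passed limma's test at 3 h or at 6 h, nor did any of the 12823 genes (background 0%). At an unadjusted p below 0.05 there was 1 of the 6 at each time, among 654 and 382 of all 12823 genes. Without any difference a share of about 0.05 of genes is expected below that p, so neither gene is set apart by it. The gene at 3 h was Fgf8, with a difference of −0.74 between null and WT responses (95% interval −1.35 to −0.13, limma adjusted p = 0.91). From SB to 3 h Fgf8 went up 37.3-fold and 55.4-fold in WT lines 18 and 26, 26.3-fold in null line 25 and 16.7-fold in null line 39. These ratios rest on SB levels of only 0.156 to 0.248 FPKM. The estimate was −1.07 without null line 25 and −0.41 without null line 39. The gene at 6 h was Fgf17, with −0.43 (−0.84 to −0.01, limma adjusted p = 1). For Fgf5 the interaction was 0.02 at 3 h (−0.20 to 0.24) and 0.16 at 6 h (−0.06 to 0.39), which bounds how far its rises can differ on this scale.

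Fgf15 and Fgf4 are neighbours on chromosome 7, with Fgf3 on the other side of Fgf4. The gap from Fgf3 (chr7:144838100-144843674) to Fgf4 was 17595 bases and from Fgf4 to Fgf15 31197 bases. Fgf3, a ligand expressed in the primitive streak and hindbrain, stood at 1.42 and 1.20 FPKM in WT lines in SB, 3.94 and 3.69 at 3 h and 3.10 and 2.58 at 6 h. In null lines 25 and 39 it was 1.35 and 1.53 FPKM in SB, 2.77 and 3.36 at 3 h and 1.72 and 1.65 at 6 h. Both outer genes of the trio thus rose at 3 h in each genotype, by 1.06 and 0.74 for Fgf3 (SE 0.111, limma adjusted p = 0.00049 and 0.005). Fgf4 between them was called in neither, at 0.01 in WT and 0.27 in null lines (limma adjusted p = 0.96 and 0.072). Fgf3 remained up at 6 h in WT lines (0.73, limma adjusted p = 0.0039) and was 0.14 above SB in null lines (adjusted p = 0.41). Beyond Fgf15 lie Oraov1 and the cyclin gene Ccnd1, with 3 h differences of 0.17 and 0.03 in WT lines and 0.04 and 0.01 in null lines, none called by limma.

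**Figure D4:**
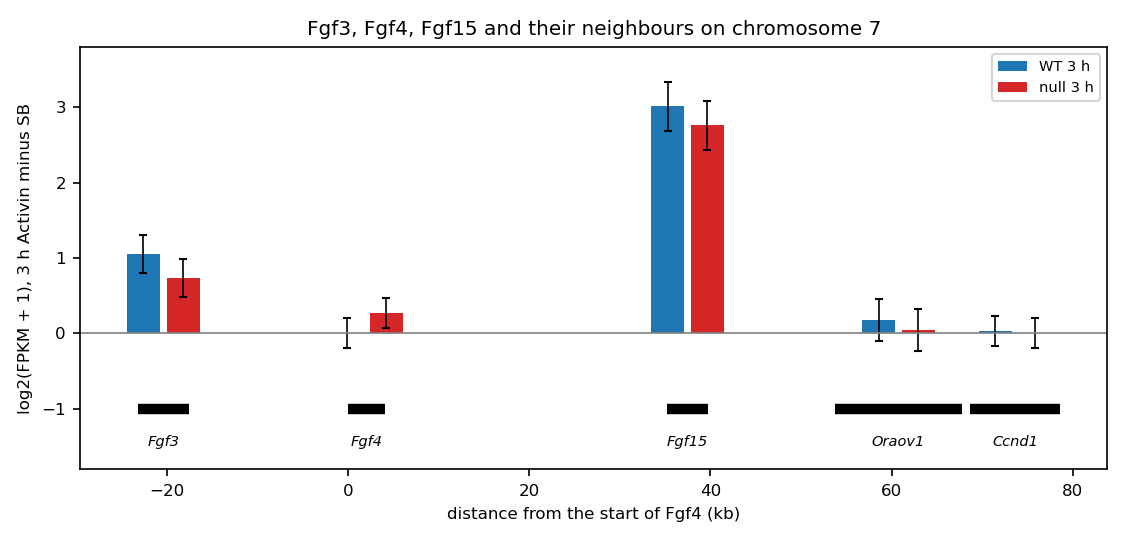
Difference at 3 h from SB in log2(FPKM + 1) (vertical axis) for Fgf3, Fgf4, Fgf15, Oraov1 and Ccnd1, placed by distance in kb from the start of Fgf4 (horizontal axis), with bars for WT and null lines, 95% intervals from limma and black bars for the extent of each locus. Fgf15 reached 3.02 and Fgf3 1.06 in WT lines, and Fgf4 between them 0.01. In null lines the values were 2.76, 0.74 and 0.27.

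Genes whose course over the 12 libraries was most like that of a member were ranked by Pearson's r of log2(FPKM + 1). The 12 points share lines and treatment groups, so r is a description. Nearest to Fgf15 were Eomes, a T-box transcription factor of the primitive streak (r = 0.996) and one of the mesendoderm markers above, Pde1b, a phosphodiesterase (0.993), and Lefty2, a Nodal antagonist (0.991). Nearest to Fgf8 were the TNF receptor superfamily gene Cd40 (0.990), Lefty2 (0.989) and Lefty1 (0.988). Fgf8 and Fgf15 had r = 0.984 with each other. Nearest to Fgf5 were Tmem98 (0.967), the clock gene Per3 (0.965), read from a locus covering 4.56% of the gene, and the carbonic anhydrase gene Car4 (0.951). Nearest to Fgf17 were the G protein gamma subunit gene Gng11 (0.975), Txndc11 (0.969) and Spats2l (0.961). Group means of Fgf4 and Fgfr1 spanned 0.48 and 0.64 log2 units, below the span of 1 set for this ranking.

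The rest of the FGF pathway was read from 5 lists, whose counts stand against 12.6% of all genes higher and 9.83% lower in WT lines at 3 h, and 6.5% higher and 7.14% lower in null lines. Ranges over the alternatives are given only for the 6 genes, not for the genes of these lists. Of 17 other FGF ligand genes, 6 were measured and 4 tested. Fgf3 rose in WT lines at 3 h and 6 h, and Fgf3 and Fgf18 rose in null lines at 3 h. The other measured ligands were low: Fgf9 reached 0.719 FPKM, Fgf11 1.89, Fgf18 1.19, Fgf21 0.998 and Fgf22 1.14.

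Of the 26 co-receptor and heparan sulfate genes 19 were tested; 3 rose and 3 fell in WT lines at 3 h, and 2 rose and 4 fell in null lines. Sdc4, a cell-surface heparan sulfate proteoglycan, fell most in WT lines, from 42.8 ± 1.9 to 23.4 ± 0.97 and 18.1 ± 1.9 FPKM (SD, n = 2). Its log2 change was −0.84 at 3 h and −1.20 at 6 h in WT lines, and −0.70 and −1.20 in null lines (SE 0.0881, limma adjusted p = 7.5e-05 to 0.0021). Flrt2, a membrane protein of a family that binds FGF receptors, fell at 3 h, by 0.77 in WT and 1.07 in null lines (limma adjusted p = 0.0037 and 0.0011). It rose again from 3 h to 6 h, by 1.00 and 0.72 (limma adjusted p = 0.0056 and 0.017). Flrt2 was also the 1 gene of the 5 lists called between genotypes: in SB it was at 4.84 ± 0.81 FPKM in null and 2.30 ± 0.13 in WT lines (log2 difference 0.82, limma adjusted p = 0.035). With only the compared groups in the fit, 0 of 12823 genes passed between genotypes in SB or in null lines from 3 h to 6 h. The Flrt2 calls in those comparisons were thus lost there. Fgfrl1, an FGF receptor without a kinase domain, rose by 0.66 in WT and 0.65 in null lines at 3 h. Sdc3, another syndecan, rose by 0.53 and 0.75.

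Of the 22 adaptor and kinase genes read here 19 were tested, and 3 fell in WT lines at 3 h and 1 in null lines. Map2k1, which encodes the kinase MEK1, fell by 0.36 in WT and 0.39 in null lines at 3 h (limma adjusted p = 0.0093 in both). Rps6ka1, an ERK-activated kinase, fell by 0.31 in WT lines (limma adjusted p = 0.031) and was −0.26 in null lines (adjusted p = 0.066).

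Feedback inhibitors went both ways: of 15 tested, 2 rose and 5 fell in WT lines at 3 h, and 2 rose and 3 fell in null lines. Dusp4, a phosphatase of ERK, fell from 31.7 ± 1.5 to 13.5 ± 0.27 FPKM in WT lines and from 28.0 ± 4.5 to 15.1 ± 2.5 in null lines (log2 change −1.18 and −0.85, SE 0.142, limma adjusted p = 0.0011 and 0.008). Spred1, an inhibitor of RAS signalling, fell by 0.62 and 0.43. Il17rd, the membrane inhibitor Sef, rose by 1.07 and 0.99 (limma adjusted p = 0.00018 and 0.00043) and Spry1, a Sprouty inhibitor, by 0.54 and 0.40.

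Of the 10 transcription factor genes known as ERK targets, all tested, 3 rose and none fell in WT lines at 3 h, and 2 rose and none fell in null lines. Junb went from 3.11 ± 0.17 to 17.5 ± 0.11 FPKM in WT lines and from 4.47 ± 0.82 to 16.7 ± 3.0 in null lines (log2 change 2.17 and 1.69, SE 0.128, limma adjusted p = 1.8e-05 and 0.00013). Myc rose by 0.51 and 0.62. The medians of the 5 lists at 3 h ran from −0.11 to 0.20 in WT lines and from −0.13 to 0.38 in null lines, the highest being that of the 4 other FGF ligands. No gene of any list was called by limma for the interaction at 3 h or 6 h.

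**Figure D5:**
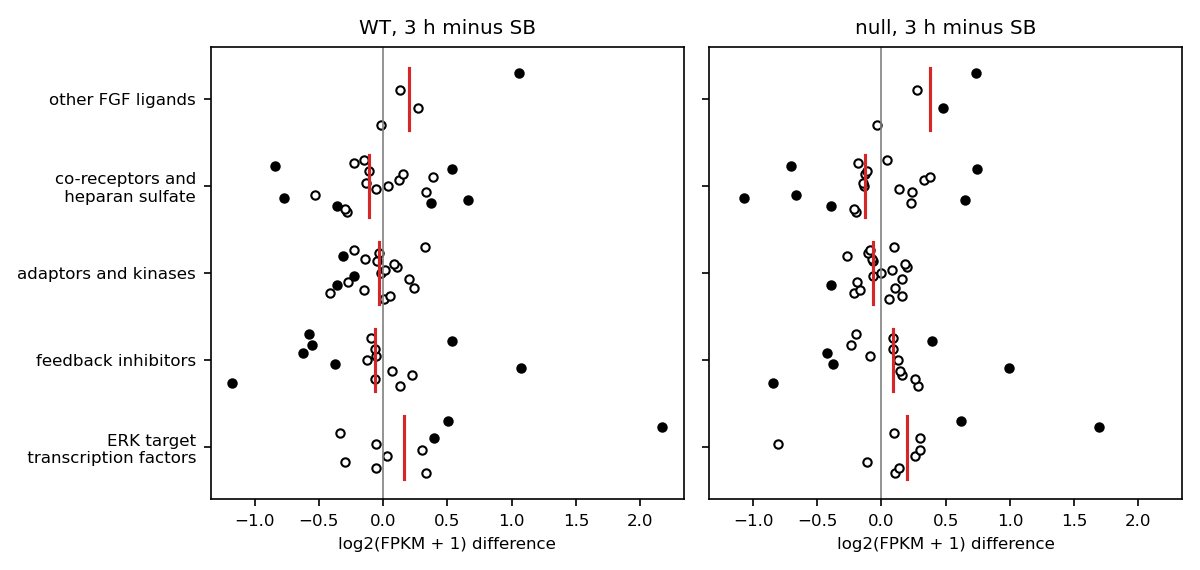
Difference at 3 h from SB in log2(FPKM + 1) (horizontal axes) for each tested gene of the 5 lists (vertical axis), in WT lines on the left and null lines on the right. Filled points passed an adjusted p of 0.05, red bars are list medians and the vertical scatter within a list only separates points. Junb, at 2.17 in WT lines, was the highest point, and Dusp4, at −1.18, the lowest in WT lines.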

How the data were processed

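FPKM values per gene locus and library were deposited by the authors in 1 table, per the file headers. Per the submitters' processing notes the build is mm10. Which aligner, quantifier, annotation, strand setting and library scaling were used is not given in the sources used here. Columns were matched to libraries by genotype, line and treatment in their names. Of 17446 loci, 2666 without a gene name (3.41 to 3.86% of summed FPKM) and 27 with a status other than OK were left out. For each name the locus with the highest mean FPKM was kept. Locus starts were taken to count from 0, so 1 was added. Of 12158 starts matched to RefSeq, 252 lay 1 base below it, the most frequent offset, and 140 lay on it.

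Genes with at least 1 FPKM in at least 2 libraries were tested with limma 3.58.1 in R 4.3.3 on log2(FPKM + 1). The model held 6 group means and moderated variances with an expression trend, leaving 6 residual degrees of freedom. Two-sided p-values were adjusted by Benjamini-Hochberg over 12823 genes, with a threshold of 0.05. The script was tested on simulated data. The 12 contrasts compared the 3 treatments pairwise in WT and in null lines, the genotypes in every treatment and on line means, and the genotypes' responses at 3 h and 6 h (interaction). Intervals cover 95%.

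Libraries of a line pair by design. The deviations of a line's libraries from their group means correlated at 0.0165 to 0.0537 in WT lines and 0.246 to 0.349 in null lines. The main fit had no block, and the fit with the line as a replicate block was an alternative, among 11 in all: pseudocount 0.1, no filter or a minimum of 5 FPKM, quantile normalization, the block, only the groups compared, loci of a name summed, and each line left out. Named genes were the 9 members, the 2 highest and 2 lowest called genes of each pathway list in WT lines at 3 h, and the 3 genes most correlated with each member whose group means span at least 1 log2 unit. Other called or neighbouring genes were named after their values were seen. The members and lists were chosen with earlier results of these data known. From the adaptor and kinase list 1 gene is not reported here, and the list's counts and median leave it out.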

Additional observations from a re-analysis of the deposited data

How the results depend on the processing

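Of 72 member results (6 genes in 12 contrasts), 25 were called. None of the 25 changed sign under any of the 11 alternatives, 8 kept the call under all of them and 17 lost it under at least 1. The 8 were those of Fgf8 and Fgf15 in WT lines at 3 h and in null lines at 3 h and 6 h, Fgf15 in WT lines at 6 h and Fgf5 in null lines at 6 h. Of the others, 14 gained a call. With the cell line as a replicate block, the counts called rose from 3 to 5 for WT 6 h against 3 h and from 2 to 4 for null 6 h against 3 h, and to 6 from 4 for null 3 h against SB, while calls over all 12823 genes rose from 325 to 852, 594 to 1724 and 1749 to 3788; the block changed no other call, and it could not be fitted for the means of the lines, nor could the fit on the compared groups alone. In that last fit the counts were 0 for WT and null 6 h against 3 h, 2 and 3 for null at 3 h and 6 h against SB, and 0 for genotype in SB and at 3 h. Over all 12823 genes that fit called 63 and 0, then 176 and 127, then 0 and 0 in the same comparisons. With a minimum of 5 FPKM, under which Fgf17 was not tested, 1 member was called between genotypes at 6 h, among 28 of 7829 genes.

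With 1 line left out the counts ran from 2 to 4 for WT 3 h, 1 to 5 for WT 6 h, 0 to 4 for WT 6 h against 3 h, 2 to 3 for null 3 h, 0 to 2 for genotype in SB and at 3 h, and 0 to 3 at 6 h and on the means of the lines. Without null line 25, 2047, 136, 1508 and 1193 of all genes passed in those 4 genotype contrasts, against 40, 49, 27 and 0 with it. With any line left out, fewer members were called for null 6 h and none for null 6 h against 3 h. For null 6 h the calls over all genes fell steeply only without a WT line. A group with 1 line left is assumed to vary like the others. Fgf15's interaction turned to 0.13 at 3 h and 0.28 at 6 h with a pseudocount of 0.1. Other changes of sign came from leaving out a line: Fgf4 in null lines at 6 h (−0.022 to 0.036), Fgf8 in null lines from 3 h to 6 h (−0.74 to 0.018), Fgf17 between genotypes at 6 h (−0.20 to 0.038), the Fgf5 interaction at 3 h (−0.013 to 0.054), the Fgfr1 interaction at 6 h (−0.047 to 0.068) and Fgfr1 on the means of the lines (−0.10 to 0.0063). None of these was called. The cause of the changes was not tested beyond the smaller number of libraries. Unknown read totals limit values below 1 FPKM, such as Fgf8 in SB.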
